A study of Mus musculus with 4 samples.

Results

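Neurotrophins are secreted survival and differentiation factors, and the genes described here are 3 of their ligands and 4 of their receptors, taken as rows of the deposited count table whose Ensembl identifier carries one of 7 gene symbols. They are Bdnf, Ntf3 and Ntf5 (ligands), Ntrk2 and Ntrk3 (Trk receptors), Ngfr (the p75 receptor) and Sort1 (sortilin), 7 of 45706 genes in the table. All 7 were found, and 6 had at least 1 count. The samples are 4 RNA libraries of basal radial glia, progenitors without contact to the ventricle, from mouse medial neocortex at stage E18.5, and they form a single group. All 4 carry the same labels: strain C57BL/6JOlaHsd, genotype Tubb-GFP/+ (a heterozygous reporter), with the lipophilic dye DiI named in the sample titles. How reporter and dye were used is not stated, nor whether separate animals were taken. Every p-value therefore concerns these 4 samples alone, and the spread among them may be technical. No other cell type or condition was analysed here, so the data give levels in these libraries, not a difference from other cells. Markers of neurons and erythroid cells were abundant too.

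As background, each mature neurotrophin is cut from a longer precursor and acts as a dimer. BDNF and neurotrophin-4, the product of Ntf5, bind the receptor tyrosine kinase TrkB, encoded by Ntrk2, while neurotrophin-3, the product of Ntf3, prefers TrkC, encoded by Ntrk3. All neurotrophins bind p75, a member of the tumour necrosis factor receptor family that lacks a kinase, and the uncut precursors bind p75 together with sortilin. In the developing cortex these factors are known for roles in neuron survival, progenitor differentiation and dendrite growth.

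The ligands are close relatives, and the stretch below shows how far their coding sequences resemble each other. Each line is 60 bases, 5′ to 3′ on the coding strand, of a window without gaps over GENCODE M21 transcripts (GRCm38). Capitals mark the 34 positions where the 3 genes have the same base. The Bdnf stretch lies at chr2:109724006-109724065 (plus strand), that of Ntf3 at chr6:126101816-126101875 (minus strand) and that of Ntf5 at chr7:45415926-45415985 (plus strand), each inside a single coding exon.
Bdnf: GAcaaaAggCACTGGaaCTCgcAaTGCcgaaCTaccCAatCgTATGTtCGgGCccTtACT
Ntf3: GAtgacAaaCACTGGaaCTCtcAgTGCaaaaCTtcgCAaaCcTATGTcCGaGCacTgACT
Ntf5: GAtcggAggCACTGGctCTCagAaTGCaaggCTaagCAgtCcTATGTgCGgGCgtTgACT
The longest run of identical bases between any 2 ligand genes, over all their transcripts and both strands, was 18 bases. Over all 21 pairs of the 7 genes it was 32 bases, between Ntrk3 and Ngfr.

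Both Trk genes make a receptor with a kinase and shorter receptors without one, and a count per gene adds these forms together. The lines below show where the coding sequences of a long and a short form part. Lower case is the last 30 shared bases, and capitals are the first 38 bases that each form takes from an exon of its own.
Ntrk2 long form: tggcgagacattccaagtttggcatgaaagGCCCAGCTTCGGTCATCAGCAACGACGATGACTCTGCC
Ntrk2 short form: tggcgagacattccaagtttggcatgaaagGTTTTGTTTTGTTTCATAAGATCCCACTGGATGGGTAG
Ntrk3 long form: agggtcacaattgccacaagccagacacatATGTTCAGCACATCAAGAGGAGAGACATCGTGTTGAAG
Ntrk3 short form: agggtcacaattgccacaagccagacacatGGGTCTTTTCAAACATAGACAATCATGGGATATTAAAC
In the short form of Ntrk2 the 38 bases in capitals (chr13:58932023-58932060, plus strand) are all of its own coding sequence and end in the stop codon. Its long form instead goes on for 1073 coding bases, from chr13:58985802-58985839. The long form of Ntrk3 (capitals at chr7:78260377-78260414, minus strand) has 893 coding bases of its own and the short form (chr7:78304389-78304426, minus strand) 254. The values below cannot say which form these cells held.

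Library totals ran from 26540656 to 34837657 counts. Levels are TPM, that is, deposited counts divided by merged exon length (all annotated exons of a gene joined) and scaled to the same sum in each library, so that they can be compared between genes. Genes with at least 10 counts in total were tested against a level of 1 TPM, a convention, with edgeR's quasi-likelihood test adjusted over all genes tested. The SE printed beside each log2 level below was derived from that test, as the absolute log2 level divided by the square root of its F statistic. It is not the SE of the 4 library values, and it changes with the length used. DESeq2 gave a larger SE for each detected member, for Ntf3 0.17 against 0.11. Of the 7 genes, 5 lay above 1 TPM, Ngfr was not called and Ntf5 had too few counts to be tested. Among all 20991 genes tested 65.9% lay above and 12.1% below, and among the 15401 protein-coding ones 75.7% lay above, so the count of 5 in 7 does not set these genes apart. Their median level in log2(TPM + 1) was 3.71 ± 0.13 (SD, n = 4) with Ntf5 included and 3.81 without it, and over all genes tested it was 2.53 ± 0.053. All 7 genes are protein-coding but not all genes tested are, so these medians are over unlike sets. Ranked among the protein-coding genes tested by mean TPM, Sort1 stood at percentile 65.5, Ntrk2 at 61.9, Ntf3 at 59.8, Ntrk3 at 56.2, Bdnf at 33.2 and Ngfr at 20.8.

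**Figure D1:**
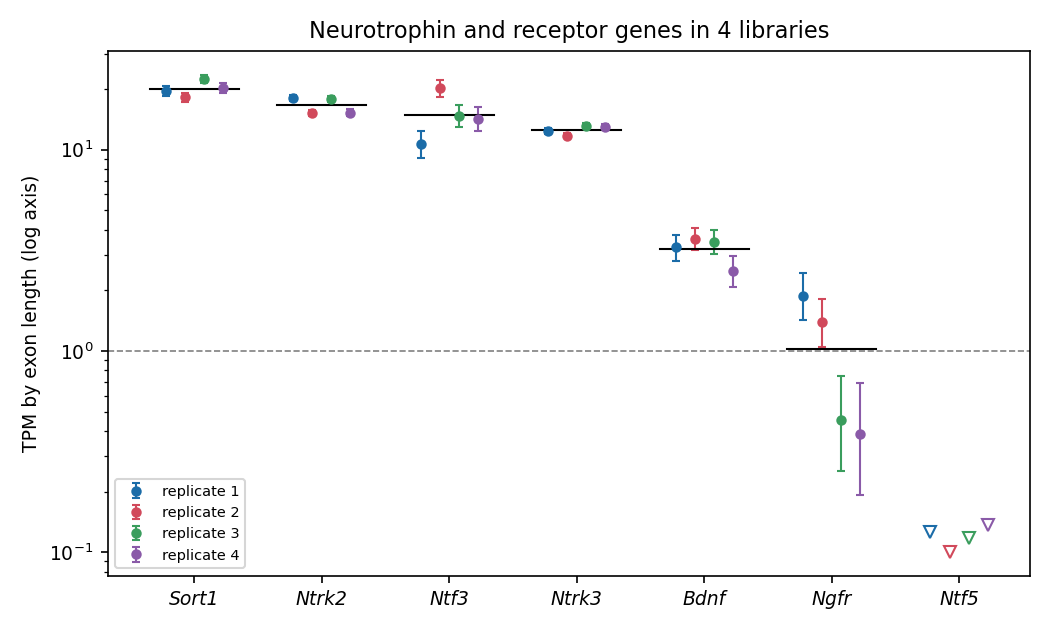
Level of each gene in TPM by exon length (log axis) in the 4 libraries. Points are libraries with exact Poisson 95% intervals, black lines are means, the dashed line is 1 TPM, and open triangles for Ntf5 mark the level that 3 counts would give, since its count was 0. Sort1, Ntrk2, Ntf3 and Ntrk3 lie between 10.6 and 22.5 TPM, Bdnf between 2.499 and 3.60 TPM, and Ngfr straddles 1 TPM.

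Among the ligands, Ntf3 had the highest TPM by exon length, Bdnf was lower and Ntf5 was not detected. Ntf3 (ENSMUSG00000049107; GRCm38 chromosome 6, 126101412 to 126166910) had 163, 390, 243 and 201 counts in replicates 1 to 4, or 10.6, 20.2, 14.8 and 14.2 TPM. Replicate 2 was the highest and replicate 1 the lowest. Exact Poisson 95% intervals were 18.3 to 22.3 TPM in replicate 2 and 9.06 to 12.4 TPM in replicate 1, and neither overlaps the interval of another library except that replicate 1 touches the lower edge of replicate 4. The mean was 14.96 ± 3.96 TPM (SD, n = 4), a log2 level of 3.91 ± 0.11 relative to 1 TPM (SE; edgeR adjusted p = 7.72e-11).

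Bdnf (ENSMUSG00000048482; chromosome 2, 109674700 to 109727007) had 182, 252, 208 and 128 counts, or 3.27, 3.60, 3.48 and 2.499 TPM. Replicates 1 to 3 lay close together and replicate 4 was lower, with an interval (2.08 to 2.97 TPM) below those of replicates 2 and 3 but overlapping that of replicate 1 (2.81 to 3.78 TPM). Its mean of 3.21 ± 0.495 TPM corresponds to a log2 level of 1.69 ± 0.11 relative to 1 TPM (SE; edgeR adjusted p = 1.53e-07). The gene Gm45346 on the opposite strand covers 14.4% of the exonic bases of Bdnf, and since the protocol as described does not mark strand, reads there cannot be assigned to either gene. Ntf3 made up 81.8% ± 4.06 of the summed ligand TPM (SD, n = 4), from 76.5% in replicate 1 to 85.1% in replicate 4. Per exon length Ntf3 was 4.58-fold higher than Bdnf (SD 0.38 on the log2 scale, n = 4), with the same sign in 4 of 4 libraries. The exact two-sided sign-flip test gave p = 0.13, which is as low as a design of 4 libraries allows (0.146 after adjustment over 21 pairs). Merged exons are shorter in Ntf3 (1714 bases) than in Bdnf (6217), and the difference depends on that length. In counts, without length correction, the log2 ratio was 0.34 ± 0.38 (SD, n = 4) with 3 of 4 libraries on the side of Ntf3, whose share of the ligand sum was then 55.7% ± 6.57. On the deposited TPM the share was 50.2% ± 6.62.

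Ntf5 (ENSMUSG00000074121; chromosome 7, 45413695 to 45417179) had 0 counts in each of the 4 libraries. A count of 0 allows up to 3 counts, which is 0.126, 0.1005, 0.118 and 0.137 TPM in replicates 1 to 4, and covers counting error only. Against that floor per library, Bdnf was at least 18.2-fold and Ntf3 at least 84.1-fold higher in every library.

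Both Trk receptor genes were present at similar levels per exon length. Ntrk2 (ENSMUSG00000055254; chromosome 13, 58806569 to 59133970) had 3135, 3288, 3324 and 2425 counts, or 18.2, 15.1, 17.9 and 15.3 TPM. Replicates 1 and 3 were higher than replicates 2 and 4, whose intervals do not reach them. The mean of 16.6 ± 1.65 TPM lay 4.06 ± 0.039 (SE, log2) above 1 TPM (edgeR adjusted p = 7.02e-15). Ntrk3 (ENSMUSG00000059146; chromosome 7, 78175959 to 78738012) had 3360, 3987, 3797 and 3216 counts, or 12.4, 11.7, 13.1 and 12.9 TPM. It varied the least of the 6 detected genes, with a coefficient of variation of 4.87%. Its mean of 12.6 ± 0.611 TPM lay 3.65 ± 0.032 (SE, log2) above 1 TPM (edgeR adjusted p = 3.29e-15).

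Ntrk2 took 56.9% ± 2.22 of the summed Trk TPM (SD, n = 4), and the log2 ratio of Ntrk2 to Ntrk3 was 0.40 ± 0.13, positive in 4 of 4 libraries (exact sign-flip p = 0.13, adjusted 0.146). That order is a matter of length: without length correction the log2 ratio was -0.24 ± 0.13, since Ntrk3 had more counts in every library. Merged exons reach 30170 bases in Ntrk3 and 19292 in Ntrk2, whereas the median coding transcript has 2726 and 3049 bases. With the latter length the ratio was -0.41 ± 0.13, and each Trk gene lay higher relative to the rest. The summed Trk TPM was 1.68 ± 0.439 times the summed ligand TPM (SD, n = 4), from 1.13 in replicate 2 to 2.20 in replicate 1. This ratio too depends on the length: with the median coding transcript it was 10.8 ± 2.65, with the longest transcript 2.65 ± 0.683, and in counts 15.8 ± 3.21.

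Ngfr, the gene of the p75 receptor, was the least abundant detected member and the most uneven. Ngfr (ENSMUSG00000000120; chromosome 11, 95568818 to 95587735) had 58, 54, 15 and 11 counts, or 1.88, 1.39, 0.453 and 0.387 TPM. Exact Poisson 95% intervals ran from 1.43 to 2.43 TPM in replicate 1 and from 1.05 to 1.82 in replicate 2. In replicates 3 and 4 they ran from 0.254 to 0.747 and from 0.193 to 0.693 TPM, so these libraries lie below replicates 1 and 2 without overlap. The mean of 1.03 ± 0.73 TPM (SD, n = 4) was not called different from 1 TPM (log2 0.045 ± 0.38, SE; edgeR adjusted p = 0.917). The highest library was 4.85 times the lowest.

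p75 is known from subplate neurons and from cells around vessels, so the markers of these cells are given beside Ngfr. The summed level of the 5 mural cell markers was 7.67, 10.98, 12.1 and 9.24 TPM in replicates 1 to 4, lowest where Ngfr was highest, and 2 of the 5 were at 0 in a library. These 2, Kcnj8 with 17, 9, 0 and 0 counts and Abcc9 with 6, 9, 0 and 1, were named after their values were seen, because they had most of their counts in replicates 1 and 2. Of the other markers of that list, Pdgfrb was highest in replicate 3 (8.89 TPM), Rgs5 in replicate 2 (2.99 TPM) and Acta2 in replicate 4 (1.71 TPM). Rgs5 and Acta2 were lowest in replicate 1. The 5 subplate markers summed to between 23.0 and 26.6 TPM, a narrow range. Sums that were higher in replicates 1 and 2, as Ngfr was, included those of the neuron markers (10472 and 10196 against 9376 and 9653 TPM) and of the interneuron markers (86.4 and 129 against 70.5 and 82.2 TPM). The sums of the intermediate progenitor markers (1049 and 1039 against 988 and 948 TPM) and endothelium markers (4.54 and 3.98 against 3.83 and 3.04 TPM) split likewise. Gadd45g, named after its values were seen, carried the progenitor split (581, 544, 483 and 437 TPM in replicates 1 to 4). In that list Btg2 was lowest in replicate 1 (392 TPM), and Insm1 and Neurog2 in replicate 2 (29.5 and 13.7 TPM). Eomes was lower in replicate 2 than in replicate 3 (17.8 against 19.6 TPM). No endothelium marker split that way by itself. Of the 5 endothelium markers, 1 lay above 1 TPM and 2 below. Among the neuron markers, Rbfox3, named after its values were seen, was at 16.2, 15.4, 11.9 and 11.2 TPM in replicates 1 to 4. Tubb3, which made up most of the neuron sum (7221, 7007, 6273 and 6263 TPM), and Gap43 were also higher in replicates 1 and 2. The others of that list, Neurod6, Stmn2, Dcx and Map2, were instead highest in replicate 4, where Ngfr was lowest. The part of any of these cell types in the Ngfr values was not tested. In bulk RNA, fewer cells of a type and less RNA per cell cannot be told apart.

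Sort1, the sorting receptor that also serves as co-receptor of p75 for precursors, had the highest TPM of the 7 genes by exon length and in the deposited table, but not by the other lengths tried, which put Ntrk2 (longest transcript) or Ntrk3 (median coding transcript, or no length) first. Sort1 (ENSMUSG00000068747; chromosome 3, 108284082 to 108361511) had 1326, 1551, 1636 and 1266 counts, or 19.6, 18.2, 22.5 and 20.3 TPM. Replicate 3 was the highest, and its interval does not reach those of replicates 1 and 2. The mean of 20.1 ± 1.79 TPM lay 4.33 ± 0.044 (SE, log2) above 1 TPM (edgeR adjusted p = 1.1e-14). Gm12523 on the opposite strand covers 4.47% of its exonic bases and had between 1 and 5 counts.

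In order of mean TPM the genes were Sort1, Ntrk2, Ntf3, Ntrk3, Bdnf, Ngfr and Ntf5. Not all neighbours in that order differ. Sort1 was above Ntrk2 by 0.28 ± 0.13 (log2, SD, n = 4) in 4 of 4 libraries. Ntrk2 against Ntf3 (0.18 ± 0.49) and Ntf3 against Ntrk3 (0.22 ± 0.42) differed by less than their spread, each with 3 of 4 libraries on one side. Ntrk3 was above Bdnf by 1.98 ± 0.28 and Bdnf above Ngfr by 1.92 ± 1.01, both in 4 of 4 libraries. Of the 15 pairs among the 6 detected genes, 12 had one sign in all 4 libraries, and the exact permutation p was 0.13 (adjusted 0.146) for each, the floor of the design, so none can pass 0.05. The 3 others all involve Ntf3 against Sort1, Ntrk2 or Ntrk3.

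**Figure D2:**
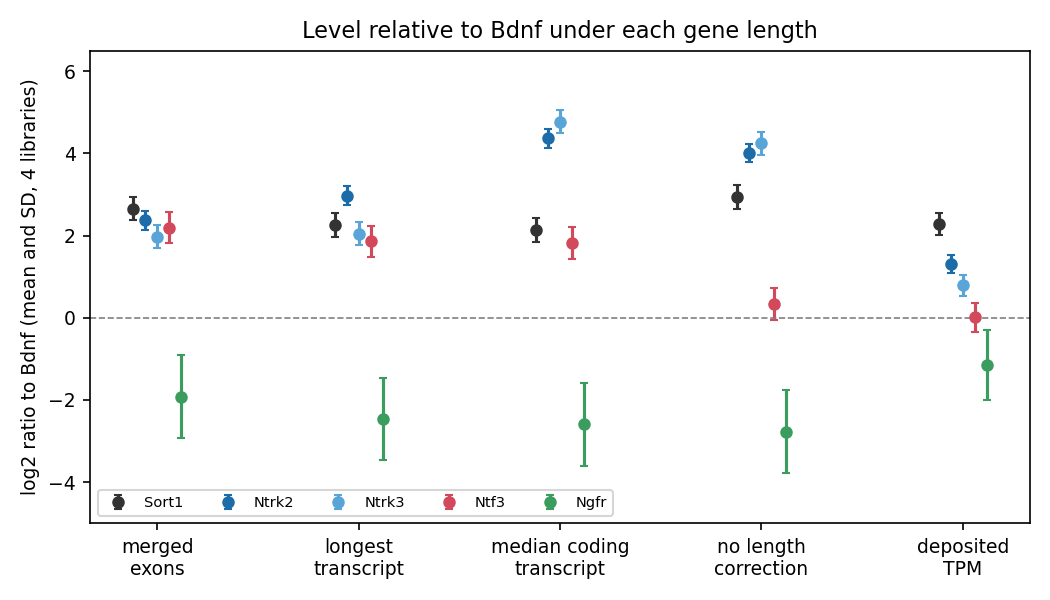
Log2 ratio of each gene to Bdnf (vertical axis; mean and SD over 4 libraries) under 5 choices of gene length (horizontal axis). Ntrk2 and Ntrk3 move from 2.38 and 1.98 with merged exons to 4.37 and 4.77 with the median coding transcript, Sort1 stays between 2.14 and 2.94, and Ngfr is below Bdnf under each.

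The order above Bdnf rests on the length used, while the positions of Bdnf and Ngfr below Sort1, Ntrk2 and Ntrk3 held for every length tried. In the deposited TPM Sort1 led at 6.92 ± 0.62 (SD, n = 4), followed by Ntrk2 (3.44 ± 0.34), Ntrk3 (2.37 ± 0.115), Ntf3 (1.38 ± 0.365), Bdnf (1.34 ± 0.208) and Ngfr (0.658 ± 0.467). For 95.3% of 9095 genes, the deposited TPM divides counts by the whole gene span with introns, within 0.01 on the log2 scale. That span is 562054 bases for Ntrk3 and 327402 for Ntrk2 but 18918 for Ngfr. Ntf3 is not separated from Bdnf on that scale (log2 ratio 0.013 ± 0.36), and Ntf5 was not analysed on it.

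All 6 detected genes varied between libraries by more than counting error (chi-square test of counts against library totals, adjusted over all genes), as did 72.5% of all genes tested. The spread index, the chi-square divided by its degrees of freedom and near 1 for counting error alone, was 34.3 for Ntrk2, 19.0 for Ntf3, 16.2 for Ngfr, 12.4 for Sort1, 7.41 for Ntrk3 and 5.16 for Bdnf. The index grows with counts, so each gene was placed among the genes whose total count is within 2-fold of its own. Of 3115 such genes 6.07% had a larger index than Ngfr, and of 3431 such genes 11.8% a larger one than Ntf3. For Ntrk2 this share was 18.1%, for Sort1 46.9%, for Bdnf 59.4% and for Ntrk3 76.4%. The Bdnf spread rested on replicate 4 (index 0.601 without it, adjusted p = 0.607) and the Sort1 spread on replicate 3 (2.11 without it, adjusted p = 0.161).

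**Figure D3:**
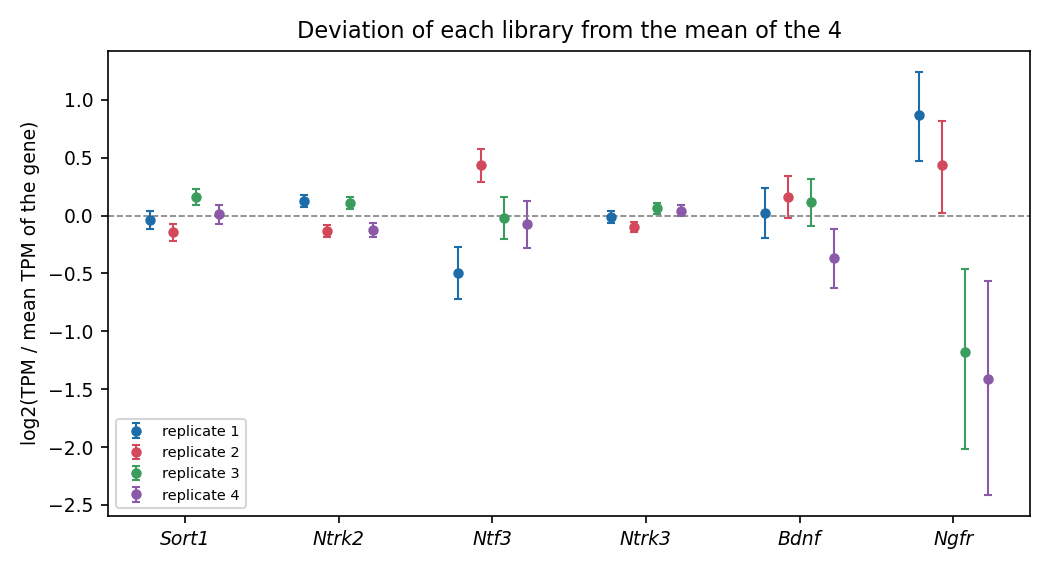
Deviation of each library from the mean of its gene, as log2(TPM / mean TPM) with exact Poisson 95% intervals, for the 6 detected genes. Ngfr is high in replicates 1 and 2 and low in 3 and 4 (1.88 and 1.39 against 0.453 and 0.387 TPM), Ntf3 is high in replicate 2 and low in replicate 1 and Bdnf is low in replicate 4.

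Replicate 2, where Ntf3 was highest, was also the highest of the 4 for the summed erythroid markers (3599 TPM against 2112 to 2251 in the others), interneuron markers (129 TPM against 70.5 to 86.4) and Cajal-Retzius markers (60.3 TPM against 46.5 to 51.3). The last 2 sums were each carried by 1 gene, named after its values were seen: Sst at 113 of the 129 TPM and Calb2 at 58.97 of the 60.3 TPM. Of their other markers Gad1 and Lhx5 were also highest in replicate 2 and the rest were not, and Gad2 (2.16 TPM) and Lhx1 (0.218 TPM) were at their lowest there and Trp73 had 0 counts. The part of these cells in the Ntf3 values was not tested. The labelled cell type was checked against markers: 8 of 8 radial glia and 5 of 6 basal radial glia genes lay above 1 TPM, where 75.7% of protein-coding genes did. The calls do not single out the label, since 5 of 5 intermediate progenitor, 7 of 7 neuron, 5 of 5 astrocyte, 5 of 5 oligodendrocyte lineage and 5 of 5 erythroid markers lay above 1 TPM as well. Hopx, named in the series title, was at 3.03 ± 0.414 TPM, a level close to that of Bdnf, and Fam107a at 0.568 ± 0.303 TPM was not called. Neuron markers were also abundant, with a sum of 9376 to 10472 TPM against 4737 to 5727 TPM for radial glia. Which cells held the neurotrophin and receptor transcripts was not tested.

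Beyond the 7 genes, 71 other genes of the pathway were listed, and 62 lay above 1 TPM, 1 below, 5 were not called and 3 had fewer than 10 counts. The share above 1 TPM among all genes tested, 65.9%, or 75.7% of the protein-coding ones, is the background for this count and for each list count that follows. In log2(TPM + 1) their median level was 3.94 ± 0.065 (SD, n = 4), and that of all genes tested 2.53. All listed genes are protein-coding but not all genes tested are, and a median over the protein-coding ones alone is not given here. Listed genes include many that most cells express.

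Among the other sortilin-family receptors, 3 of 4 lay above 1 TPM. Sorl1, which encodes the sorting receptor SorLA, was at 20.5 ± 1.99 TPM, level with Sort1. Sorcs1 (1.88 ± 0.685 TPM) and Sorcs2 (1.81 ± 0.256 TPM), the latter a partner of p75 for precursors, were lower. Of 12 genes that process or sort the precursors, 6 lay above and 1 below 1 TPM. Cpe, carboxypeptidase E, a sorting receptor for BDNF precursor, was at 236 ± 13.4 TPM and Plat, tissue plasminogen activator, which generates the protease plasmin, at 26.6 ± 2.64 TPM. The convertase genes Pcsk7 and Pcsk2 were at 22.6 ± 2.82 and 5.40 ± 0.83 TPM. Genes on the opposite strand cover 10.1% of the exonic bases of Pcsk7 (Rnf214 and Tagln) and 4.54% of those of Pcsk2. As for Bdnf, reads there cannot be assigned to either gene. Furin, a convertase that cuts neurotrophin precursors, lay above 1 TPM at 2.95, 2.15, 3.66 and 3.27 TPM and was named after its values were seen. Pcsk5, another convertase, was below 1 TPM at 0.398 ± 0.15 TPM (edgeR adjusted p = 0.0014).

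**Figure D4:**
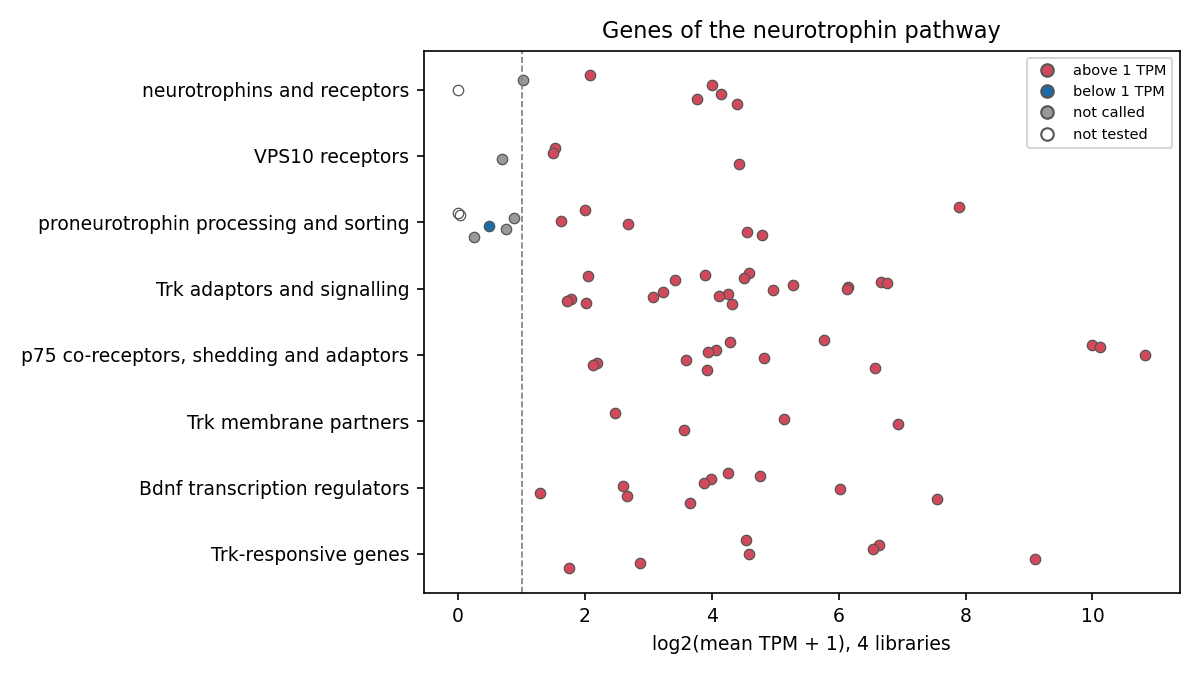
Mean level over 4 libraries, as log2(mean TPM + 1), of the 7 genes and of the other pathway genes in the 7 lists described here. Colour gives the call against 1 TPM (dashed line): 62 other pathway genes were called above it and 1, Pcsk5, below. Genes not called or not tested are drawn too, and most of them also lie below 1 TPM.

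All 19 genes of Trk adaptors and signalling lay above 1 TPM (background 75.7% of protein-coding genes), with a median of 4.23 ± 0.023 (log2(TPM + 1), SD, n = 4). The highest were Kidins220, a scaffold bound by Trk and p75, at 108 ± 8.23 TPM, the adaptor gene Grb2 at 101 ± 7.54 TPM, and the kinase genes Mapk3 and Mapk7 at 69.9 ± 11.3 and 68.8 ± 12.8 TPM. All 13 genes of p75 co-receptors, shedding and adaptors lay above it too, against the same 75.7%. Maged1, which encodes the p75-binding protein NRAGE, was at 1825 ± 31.5 TPM, Bex3, another p75-binding protein gene, at 1107 ± 45.8 TPM, Arhgdia at 1018 ± 72.0 TPM, and Tnfrsf19, a relative of p75, at 94.4 ± 5.89 TPM. Tnfrsf19 was thus at a far higher level per length than Ngfr in each library, at 85.9 to 99.4 TPM.

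The 4 Trk membrane partners were all above 1 TPM. They were Ptprs, a receptor phosphatase that binds TrkC, at 122 ± 2.2 TPM, Ptprf at 34.4 ± 2.04 TPM, Slitrk5 at 10.7 ± 1.3 TPM and Lrig1 at 4.56 ± 1.01 TPM. All 10 regulators of Bdnf transcription lay above it, against 75.7% of protein-coding genes, led by Usf1 at 187 ± 10.2 TPM, Mef2c at 64.0 ± 6.76 TPM, Creb1, the cyclic AMP response factor, at 26.2 ± 3.62 TPM and Camk4 at 18.0 ± 3.58 TPM. All 7 genes that Trk signalling can induce lay above 1 TPM, against the same background. These were highest for Fos at 546 ± 13.9 TPM, Dusp6 at 98.0 ± 9.88 TPM, Egr1 at 92.1 ± 13.8 TPM and Egr2 at 23.0 ± 3.07 TPM. These early response genes are known to react to many stimuli besides neurotrophins.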

How the data were processed

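Per the labels' protocols, total RNA was copied into cDNA by poly-dT priming with template switching, then amplified and sheared before sequencing; strand is not marked in that description. Per the submitters' processing notes, bcl2fastq 2.19.1 and STAR 2.5.2b on GRCm38 were used. Counter, strand setting and annotation release: not given in the sources used here. Deposited counts are whole reads per Ensembl gene, not normalised. The length behind the deposited TPM was inferred from the values.

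Of 45706 identifiers 45143 matched GENCODE M21 (the other 563 held at most 0.125% of counts). TPM was recomputed from the counts with merged exon lengths. Levels were tested with edgeR 4.0.16 in R 4.3.3 on counts with the count expected at 1 TPM as offset, Benjamini-Hochberg adjusted at 0.05. Since the packaged test needs a contrast, its F statistic was computed against the fixed expected count. The SE beside each log2 level was derived from that F statistic. Log2 ratios between members used (count + 0.5) per length with exact sign-flip tests. Both large tests were tested on simulated data. limma 3.58.1 was used for the deposited TPM (log2(TPM + 0.1)) and DESeq2 1.42.0 as an alternative.

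The members, lists and tests were chosen with earlier results of these data known. Named were all members and, in each other list, the 4 highest genes called above 1 TPM and each called below. Of the 71 other pathway genes, 2 are counted but not described here. Genes singled out otherwise are marked in the text or are the labelled cell type's own marker, Hopx.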

Additional observations from a re-analysis of the deposited data

Results flagged for a closer look

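Of 35 genes examined, 3 had 1 library apart from the other three by Dixon's gap-to-range criterion at the 95% level, which chance meets in about 1 in 20 genes. Creb1 reached 31.6 TPM in replicate 4 against a lowest value of 24.0 TPM. Egr2 reached 27.5 TPM in replicate 2, where the other libraries were lower. Lrig1 reached 6.06 TPM in replicate 3 against 3.88 TPM. None of the 7 neurotrophin and receptor genes met the criterion.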

How the results depend on the processing

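The number of members above 1 TPM was 5 of 6 under every alternative except the deposited TPM tested with limma, where it was 4. Ntf3 was not called there (log2 0.39, limma adjusted p = 0.0822). Of the other pathway genes, 51 to 63 lay above the level. Leaving out each replicate kept the number of members above at 5, and the log2 level of Ngfr ran from -0.41 to 0.31 without being called. With the median coding transcript as length, an alternative chosen after seeing the data, Ngfr was called below 1 TPM (-1.09, edgeR adjusted p = 0.0349). On the deposited TPM the log2 level turned negative for Ngfr (-0.77, not called), Camk4 (-0.30, not called), Lrig1 (-0.11, not called), Pcsk2 (-0.76), Sorcs1 (-2.45) and Sorcs2 (-2.16). Against 2 TPM the log2 level did so for Ngfr (-0.95, not called), and for Sorcs1 (-0.091) and Sorcs2 (-0.14), where only the sign is given. Pcsk5 lay above 1 CPM (0.87). The longest transcript turned Sort1 against Ntrk2 to -0.72. The median coding transcript gave -2.23 for that pair, -2.64 for Sort1 against Ntrk3 and -0.41 for Ntrk2 against Ntrk3, and no length correction -1.07, -1.32 and -0.24. The turns of these pairs follow from the length divided by. The spread count was 5 of 6 without replicate 3 or replicate 4. Pairs with one sign in every library numbered 18 to 20 of 21, and 13 of 15 on the deposited TPM. No paired analysis was possible because the libraries form a single group. Depth limits Ntf5, whose level cannot be told from 0, and Ngfr, whose intervals are wide.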
